A study of Mus musculus with 12 samples.

Results

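The alpha-globin locus of the mouse was taken as the stretch of chromosome 11 between 32080000 and 32210000 on build mm9, a window of 130 kb. It holds the adult alpha-globin genes Hba-a1 and Hba-a2, placed at about 32.184 and 32.197 Mb, and the enhancers in and near Nprl3, placed at about 32.13 to 32.17 Mb. These positions came with the choice of the locus and not from an annotation of mm9. Every DNase-seq peak that overlapped the window was taken, without regard to its strength, from 12 replicate lists and the authors' 4 pooled lists. Summits of the 12 replicate lists fell into 95 sites in the window, of 441685 sites in the whole table. A site is the span of 300 bp windows centred on summits, merged where they shared at least 1 bp.

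Alpha-globin is the chain that pairs with beta-globin in adult haemoglobin, and its genes are among the most strongly transcribed in maturing red cells. Their transcription depends on a cluster of enhancers upstream, several of which lie in introns of Nprl3, a housekeeping gene whose product acts in the GATOR1 complex that restrains mTORC1. The red cell factor GATA1, with partners such as TAL1 and KLF1, binds these enhancers and the globin promoters. DNase I cuts DNA that is not covered by nucleosomes, so promoters and enhancers in use appear as peaks of cuts. RefSeq's gene table for build GRCm38.p6 lists, in order along the chromosome, Il9r, Snrnp25, Rhbdf1, Mpg, Nprl3, Hba-x, Hba-a1, Hbq1b, Hba-a2 and Hbq1a. Hba-x encodes the embryonic zeta chain. That table was used for order and names only, since its build differs from that of the peaks.

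The libraries came from 4 groups with 3 libraries each. Mitotic and asynchronous G1E-ER4 cells had 100 nM estradiol for 22 h, and mitotic and asynchronous G1E cells are not labelled with it. G1E is a line made from strain 129 embryonic stem cells by disrupting the gene for GATA1, and G1E-ER4 is its subline in which GATA1 activity can be induced, so both lines lack the endogenous factor. Mitotic cells of both lines had nocodazole at 200 ng/ml for 7 h and were sorted for phosphorylated histone H3. Per the labels, G1E-ER4 cells were positive for the surface markers Ter119 and CD71, and G1E cells lacked Ter119. Estradiol went with the line in every library and nocodazole and sorting went with the stage, so GATA1, estradiol and line cannot be told apart, nor can mitosis, drug and sort. Nothing states that the 3 libraries of a group are separate cultures, so p-values measure the spread between these libraries, which may be technical. The files hold no read counts, so depth is unknown, and no expression values against which the cell type could be checked.

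The sequence just before the start of each of the 3 named genes, read from RefSeq's promoter table of build GRCm38.p6, is shown because the globin pair turns out to be the same stretch, which bears on how far their peaks are separate measurements. All 3 genes matched the table by symbol. Each line runs 5′ to 3′ on the gene's own strand over 250 bases up to the start, at chr11:32283422-32283671 (plus strand) for Hba-a1, chr11:32296242-32296491 (plus strand) for Hba-a2 and chr11:32267708-32267957 (minus strand) for Nprl3. Capitals mark GATAA, the core of the GATA motif, and CCAAT.
Hba-a1: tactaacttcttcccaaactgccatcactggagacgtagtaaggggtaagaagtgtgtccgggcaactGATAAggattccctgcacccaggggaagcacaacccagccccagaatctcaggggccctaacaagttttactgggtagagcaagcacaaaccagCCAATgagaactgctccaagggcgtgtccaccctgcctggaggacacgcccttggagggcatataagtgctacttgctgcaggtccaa
Hba-a2: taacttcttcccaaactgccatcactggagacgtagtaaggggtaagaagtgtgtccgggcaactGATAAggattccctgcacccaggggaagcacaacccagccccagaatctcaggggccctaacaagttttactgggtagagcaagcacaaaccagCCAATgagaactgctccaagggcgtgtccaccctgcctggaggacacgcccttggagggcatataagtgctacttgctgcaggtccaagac
Nprl3: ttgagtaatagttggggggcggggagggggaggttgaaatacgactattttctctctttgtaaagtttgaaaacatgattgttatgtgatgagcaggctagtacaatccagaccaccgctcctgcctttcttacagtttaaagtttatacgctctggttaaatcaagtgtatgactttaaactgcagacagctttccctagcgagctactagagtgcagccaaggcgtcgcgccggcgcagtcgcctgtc

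Shifted by 3 bases, the Hba-a1 and Hba-a2 table entries, which run on past the start, were identical at 297 of 297 bases compared. Short reads from these promoters cannot be assigned to 1 gene of the pair by sequence. How multiply placed reads were treated is not given in the sources used here, so the peaks at the 2 genes are reported as uncertain. GATAA began 182 bases before the start of Hba-a1 and 185 before that of Hba-a2, on the plus strand. It is found on either strand in 22.6% of the 32851 promoters of that table over the same 250 bases. CCAAT began 88 and 91 bases before the start, and 33.9% of promoters hold it. Neither motif was in the Nprl3 window. The E-box CANNTG began 187 bases before the start of Hba-a1, 190 before that of Hba-a2 and 87 before that of Nprl3, and 66.2% of promoters hold it. At both globin genes its last base is the first base of GATAA, so these matches overlap. The longer motifs AGATAA, CCACACCC and TGAGTCA, searched on both strands, were in none of the 3 windows.

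The locus was dense in peaks in every list, at both stages and in both lines. Mitotic G1E-ER4 lists had 26, 30 and 32 peaks in the window and asynchronous G1E-ER4 lists 27, 32 and 45. Mitotic G1E lists had 22, 26 and 32, and asynchronous G1E lists 36, 31 and 35. Peak numbers of the stages overlapped in both lines. Each list holds 100000 peaks, so an equal number is set for the genome and not for the locus. In each list the locus held more summits than 93.2% to 99.2% of 20285 to 20294 windows of its width on the autosomes and X, where the median was 1 or 2.

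**Figure D1:**
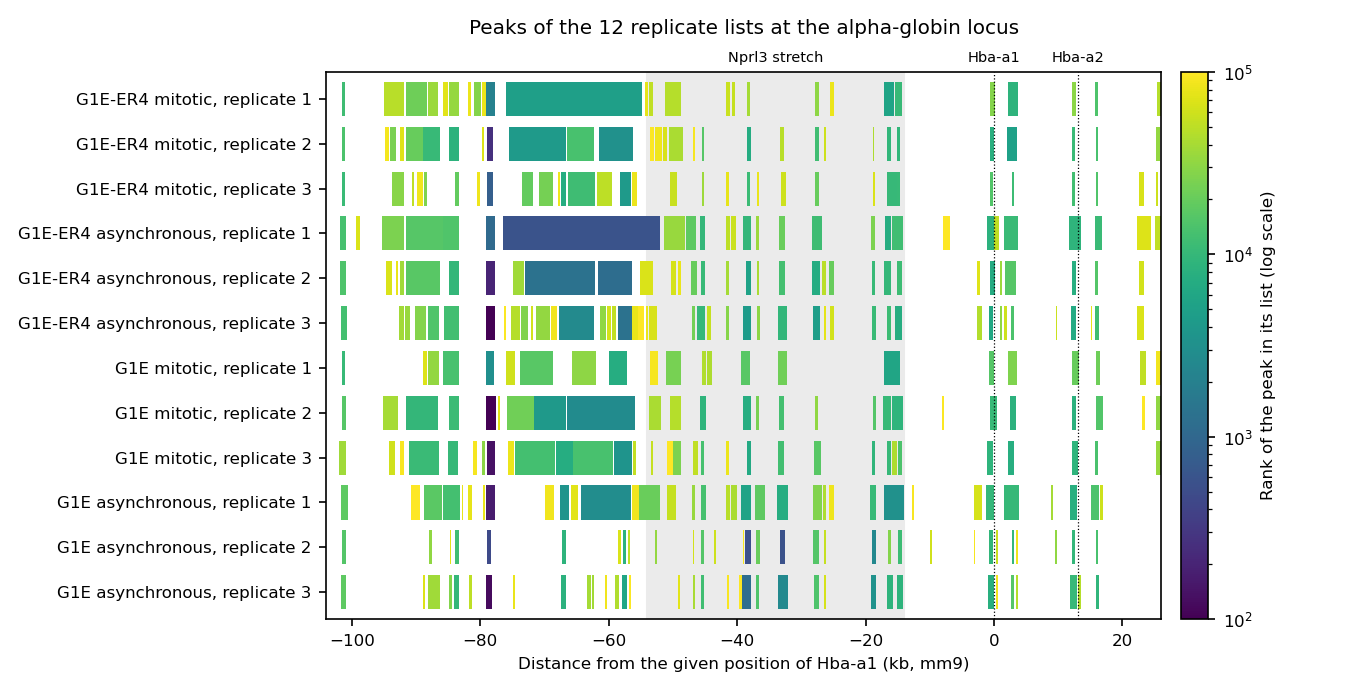
Peaks of the 12 replicate lists, 1 row a list, by distance in kb from the given position of Hba-a1, coloured by rank in the list on a log scale (ranks better than 100 are drawn as 100). The grey band is the stretch given for Nprl3 and its enhancers. The block of wide peaks lies left of the band and in some lists reaches into its left edge, mostly narrower peaks stand further inside it, and the peaks at Hba-a1 and Hba-a2 are present in all 12 rows.

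Of the 95 sites, 41 had a summit of at least 3 of the 12 lists and are called described sites. They are named by the distance of their median summit from the given position of Hba-a1, those the results turn on with the rank in each list and the rest by range. The other 54 had a summit of 1 list (40 sites) or 2 lists (14 sites), and 24 of them lay under the span of the widest peak of the window. A list holds a site where any of its peaks overlaps it by at least 1 bp, so wide peaks can hold sites that have no summit of that list. Sites held by at least 3 lists were tested, which were 81 of the 95, all 41 described sites among them. All 12 lists held 12 of the 95 sites (12.6%), against 4.79% of the sites of the whole table. At 9 sites (9.47%) every list had its own summit, against 2.33% of all sites.

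Where any overlap counted, replicate support was highest in asynchronous G1E-ER4 and lowest in asynchronous G1E. All 3 lists held 37 of the 95 sites in mitotic G1E-ER4 and 54 in asynchronous G1E-ER4. In G1E it was 41 in mitotic and 26 in asynchronous cells. Over the whole table the share of sites held by all 3 lists of a group was 15.5% in mitotic and 18.6% in asynchronous G1E-ER4, and 17.8% in mitotic and 12.9% in asynchronous G1E. The lists also differed in the length they cover genome-wide, at 64.9 to 146 Mb in mitotic and 84.3 to 181 Mb in asynchronous G1E-ER4, and 84.9 to 130 Mb in mitotic and 45 to 113 Mb in asynchronous G1E. The part of this in the counts was not tested. Counting only sites with a summit of all 3 lists, the numbers were 14 in mitotic and 19 in asynchronous G1E-ER4, and 12 in mitotic and 19 in asynchronous G1E. By that count the asynchronous groups were level and mitotic G1E was lowest, so the order depends on the way of counting.

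Most sites of asynchronous cells were also in mitotic lists. Of the 69 locus sites held by at least 2 asynchronous G1E-ER4 lists, the mitotic G1E-ER4 lists held 84.1%, 78.3% and 63.8%, a mean of 75.4% ± 10.5 (SD, n = 3). Over all sites of the table the same share was 63.3% ± 12.4 (SD, n = 3). Of the 38 such sites of G1E, mitotic G1E lists held 68.4%, 84.2% and 78.9%, a mean of 77.2% ± 8.04 (SD, n = 3), against 58.5% ± 2.22 over all sites. In each of the 6 mitotic lists the share was higher at the locus than over all sites. Sites under 1 wide peak were counted separately here. A block of wide peaks, described below, has 7 described sites and 24 others. Many of these were held in mitotic G1E-ER4 replicate 1 by a single peak of 21152 bp. The part of such shared peaks in the higher shares was not tested. The shares are a description, with no test.

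For comparison between lists, each list was given a rank score at each site, the base-2 log of 100001 divided by the rank of its best peak there, and 0 where it had no peak. Rank 1 is the highest signal, so 1 unit of rank score is a rank nearer the top by a factor of 2. The signal is the authors' own value per peak with an unstated normalization, and it was used only for this order. Differences were tested by exact permutation, two-sided, with labels exchanged within line or within stage over 400 arrangements. Benjamini-Hochberg adjustment ran over all 240177 tested sites. The smallest p this test can give is 0.005, or 0.1 within 1 line or stage, and no site of the genome passed an adjusted p of 0.05 in any comparison (0.0% called). The smallest adjusted p was 0.111 by stage and 0.143 by line. Values below are therefore given with their unadjusted exact p and with limma's adjusted p on the same scores, an alternative test whose calls are named as such.

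The best-placed site of the window lay at -78.7 kb, outside the Nprl3 stretch (chr11:32105181-32105527). Its ranks were 2048, 262 and 783 in mitotic and 1065, 198 and 79 in asynchronous G1E-ER4 lists. In G1E they were 3052, 98 and 136 in mitotic and 171, 466 and 120 in asynchronous lists. The groups overlapped in both lines, and replicate 1 of each mitotic group was the weakest of its group. The summits of all 12 lists lay within 47 bp. Its stage difference was -1.12 (exact permutation p = 0.32), so no difference was detectable against the spread. At the left end of the window, the -101.3 kb site (chr11:32082492-32082874) also had a summit of all 12 lists, at ranks of 10494 to 37500, with a stage difference of 0.02 (exact permutation p = 0.955).

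The first question put to the Nprl3 stretch was whether its sites stand as high in mitotic cells as in asynchronous ones. The stretch had 17 described sites, of 23 in all. The mean rank score over both lines was lower in mitotic cells at 14 of the 17 and higher at 3, with a median difference of -1.15. The median was -0.27 over the 41 described sites, -0.18 over the 81 tested sites of the window and 0.15 over all tested sites of the genome. Tested sites need no summit of 3 lists, so the median of the 17 and that of the genome are not on the same filter. The tested sites of the stretch outside the 17 had stage differences of 0.37, -0.28, -2.04 and 0.73. At an unadjusted exact p under 0.05, 6 of the 17 were lower and 1 was higher. In the window as a whole 7 of 81 tested sites (8.64%) were lower and 2 (2.47%) higher at that threshold, against 6.37% and 8.51% of all tested sites. By limma 4 of the 81 (4.94%) were called lower and none higher, against 5.5% and 4.12% of all tested sites. The share called lower was thus close to that of the genome, and the share called higher was below it. All 4 lay in the stretch. The -53.3 and -52.6 kb sites of the stretch lie under a peak of 24.5 kb in replicate 1 of asynchronous G1E-ER4, which gives both its rank of 581. With these sites left aside, a choice made after seeing the data, 12 of 15 were lower and 3 higher, with a median of -0.63.

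**Figure D2:**
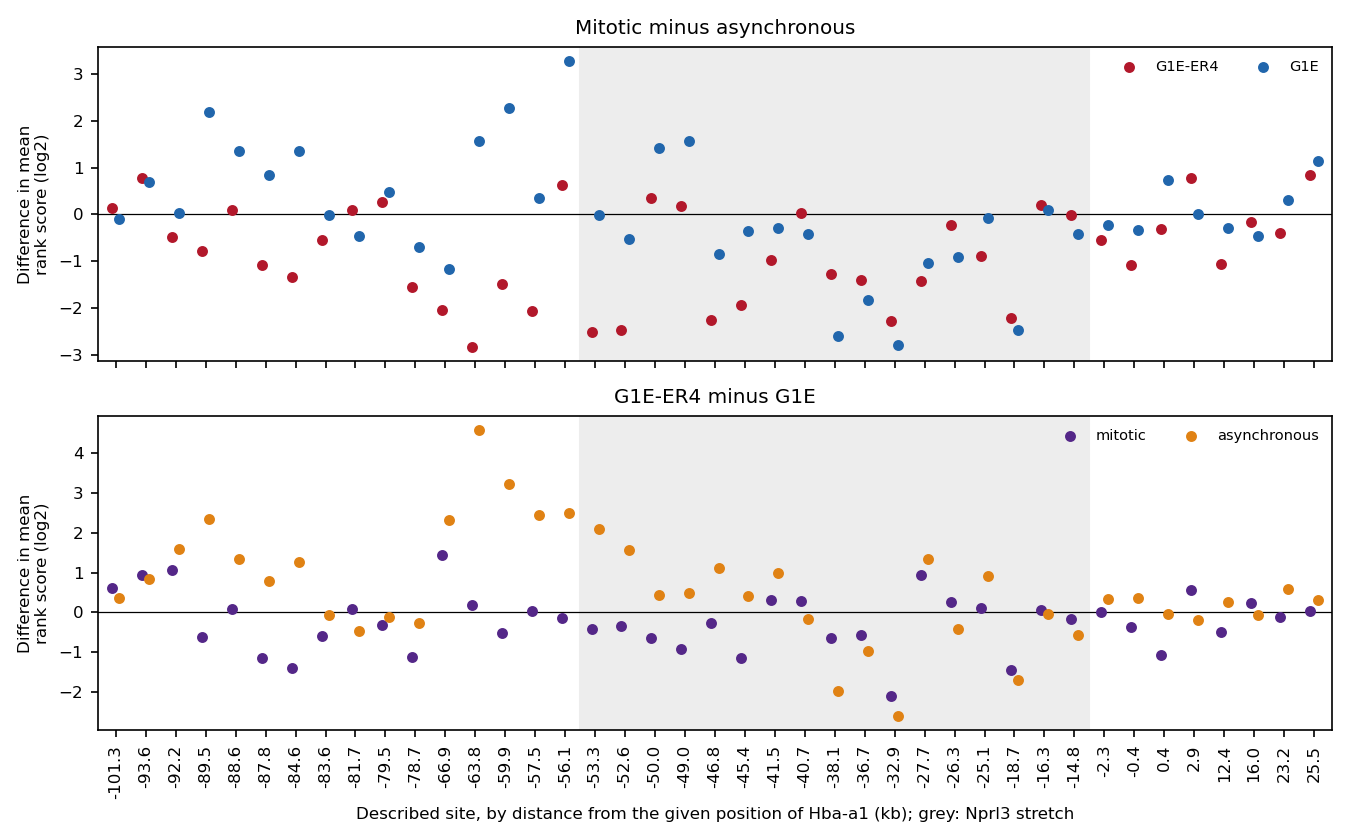
Difference in mean rank score (log2 units) at each of the 41 described sites, ordered along the chromosome and labelled by distance from Hba-a1 in kb. The upper panel is mitotic minus asynchronous within each line, the lower panel G1E-ER4 minus G1E within each stage, and grey marks the 17 sites of the Nprl3 stretch. In the upper panel both lines are below 0 from -38.1 to -18.7 kb, and at -16.3 kb both are near 0.

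Within the stretch, 5 sites between -38.1 and -18.7 kb with a summit of at least 8 lists were lower in mitotic cells of both lines. The same held outside that span for the -46.8, -45.4 and -41.5 kb sites, so the trait is not particular to the 5. The first 4 of the 5 lay 1.4, 3.8 and 5.2 kb apart. At each of the 5 the summits lay within 66 to 98 bp of one another across lists. The peaks there were 268 to 1743 bp wide, against median widths of 356 to 1192 bp over the whole of each list. Their order of strength in asynchronous G1E-ER4 cells was -38.1, -27.7, -32.9, -18.7 and -36.7 kb, with neighbouring means differing by less than the larger of their SDs, except those of the -27.7 and -32.9 kb sites and of the -18.7 and -36.7 kb sites. In asynchronous G1E cells it was -38.1, -32.9, -18.7, -36.7 and -27.7 kb. There the neighbouring means differed by less than the larger SD, except those of the -18.7 and -36.7 kb sites.

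The largest stage difference of the 41 described sites over both lines was at -32.9 kb (chr11:32150874-32151253). In mitotic G1E-ER4 lists it had no peak in replicate 1 and ranks of 47017 and 59306 in the others, against 20660, 12557 and 9406 in asynchronous G1E-ER4 lists. In mitotic G1E lists the ranks were 22240, 12713 and 12421, against 7395, 570 and 2589 in asynchronous G1E lists. No mitotic list stood as high as any asynchronous list of its line. Mean rank scores were 0.61 ± 0.56 in mitotic and 2.89 ± 0.57 in asynchronous G1E-ER4, and 2.72 ± 0.48 in mitotic and 5.49 ± 1.86 in asynchronous G1E (SD, n = 3 each). The difference over both lines was -2.53 (SE 0.55), with an exact permutation p = 0.005, adjusted p = 0.111, and limma adjusted p = 0.0172.

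The site at -36.7 kb (chr11:32147045-32147442) was the weaker neighbour of a strong one, and most mitotic lists lacked it. Of the mitotic G1E-ER4 lists only replicate 3 held it, at rank 78970, against ranks of 35000, 40581 and 29943 in asynchronous G1E-ER4. Of the mitotic G1E lists only replicate 2 held it, at 24104, against 17852, 20367 and 15102 in asynchronous G1E. Here too the stages did not overlap in either line. The difference was -1.61 (SE 0.35, exact permutation p = 0.005, adjusted p = 0.111, limma adjusted p = 0.0168). These 2 were the only described sites whose lists did not overlap by stage in both lines, 2 of 41 lower and 0 higher. They were also the only ones of the 81 tested sites of the window, against 2.38% lower and 2.13% higher of all tested sites. Within G1E-ER4 alone 11 of the 41 were lower without overlap and 0 higher, against 8.57% and 4.5% of all tested sites. Within G1E 4 were lower and 3 higher, against 8.27% and 16.7%. Tested sites need no summit of 3 lists, so these within-line counts and shares are not on the same filter. Sites of the block of wide peaks that are not described were also lower in G1E-ER4 or higher in G1E without overlap.

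The site at -18.7 kb (chr11:32165103-32165468) gave ranks of 42553 and 66983 and no peak in mitotic G1E-ER4 lists, against 25426, 10570 and 10885 in asynchronous G1E-ER4 lists. In mitotic G1E lists it had ranks of 15642 and 9094 and no peak, against 10412, 2490 and 3315 in asynchronous G1E lists. In both lines replicate 1 was the mitotic list without a peak, and in G1E the stages overlapped through mitotic replicate 3 and asynchronous replicate 1. The difference was -2.33 (SE 0.61, exact permutation p = 0.01, adjusted p = 0.152, limma adjusted p = 0.0376). The limma call was lost, at adjusted p up to 0.0922, in 8 of 12 fits that each left out 1 list.

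The strongest site of the 5, at -38.1 kb (chr11:32145649-32146027), was held by all 12 lists. Its ranks were 39213, 7104 and 11098 in mitotic and 9783, 5344 and 4268 in asynchronous G1E-ER4. In G1E they were 16717, 7431 and 6400 in mitotic and 5570, 542 and 1184 in asynchronous lists. Mitotic G1E lists were all below the asynchronous ones, while in G1E-ER4 mitotic replicate 2 stood above asynchronous replicate 1. The difference was -1.93 (SE 0.61, exact permutation p = 0.02, adjusted p = 0.185), and limma's adjusted p of 0.0795 did not pass.

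The site at -27.7 kb (chr11:32156153-32156543) had ranks of 30530, 11900 and 19955 in mitotic and 11641, 7065 and 4662 in asynchronous G1E-ER4 lists. In mitotic G1E lists replicate 1 had no peak and the others had ranks of 31578 and 16528, against 27241, 15680 and 14421 in asynchronous G1E lists. In G1E-ER4 every mitotic list was below every asynchronous one, and in G1E they overlapped. The difference was -1.22 (SE 0.46, exact permutation p = 0.015, adjusted p = 0.185, limma adjusted p = 0.134).

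A further site of the stretch called lower by limma was at -46.8 kb (chr11:32137037-32137389), weak in most lists. Mitotic G1E-ER4 lists had it once, at rank 91008, against 18002, 20268 and 23197 in asynchronous G1E-ER4. Mitotic G1E lists had it once, at 51347, against 34733, 62410 and 40453 in asynchronous G1E. The stages did not overlap in G1E-ER4 and did in G1E. The difference was -1.55 (SE 0.24, exact permutation p = 0.01, adjusted p = 0.152, limma adjusted p = 0.00387), made up of -2.25 in G1E-ER4 and -0.85 in G1E. The difference between these had an exact permutation p = 0.05 and adjusted p = 0.754 or more, as for every site of the window.

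**Figure D3:**
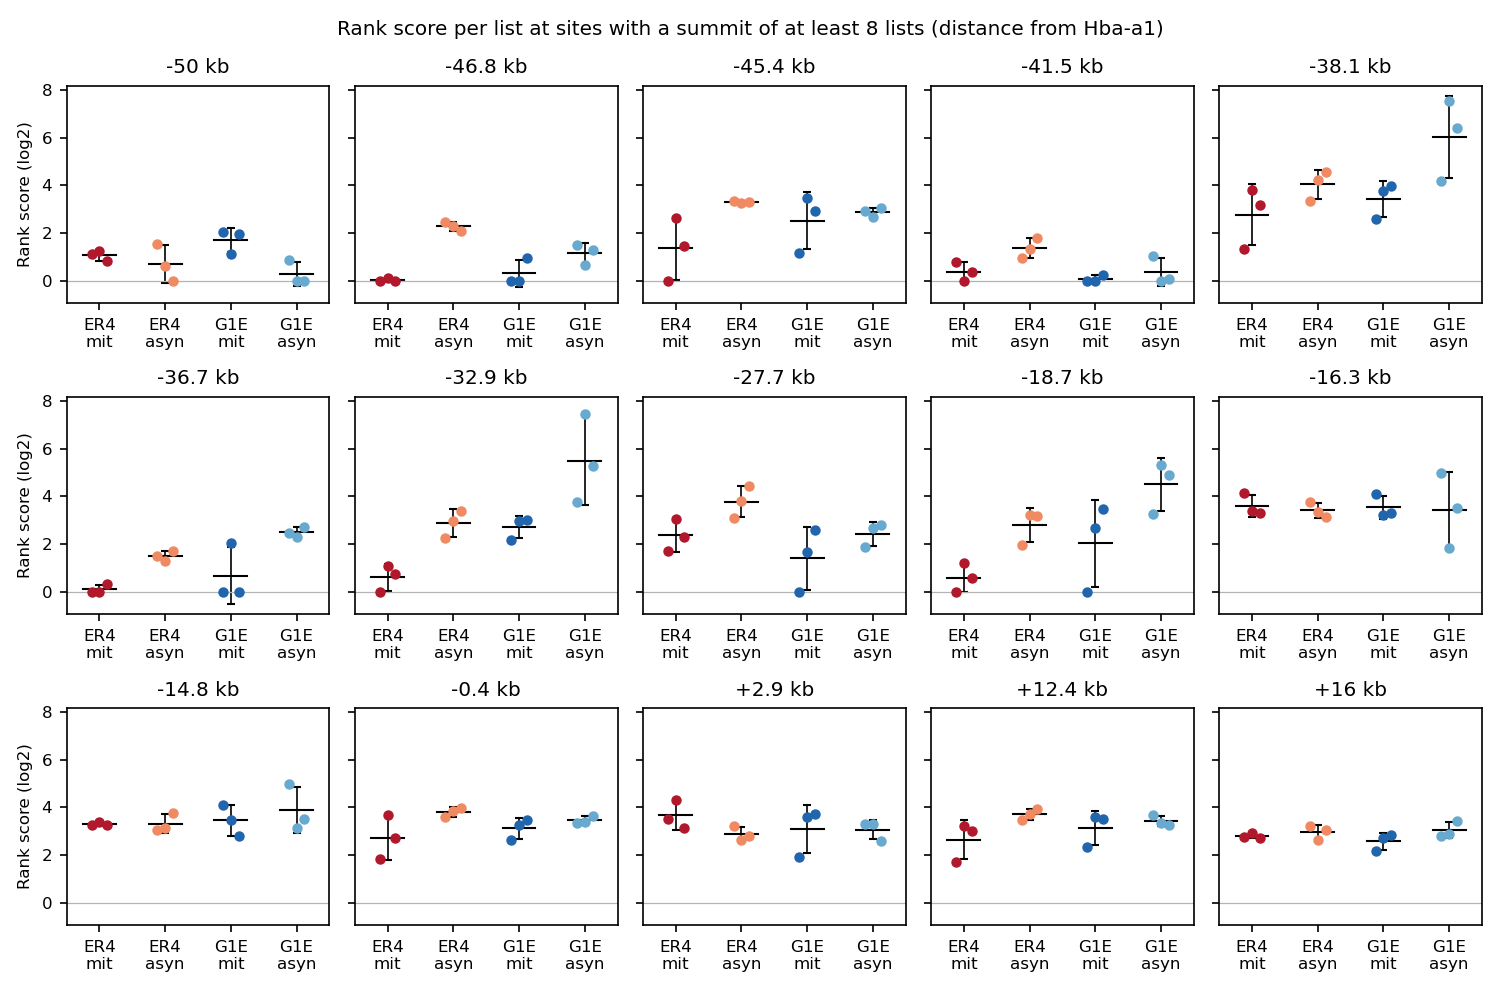
Rank score (log2 units) of each list at the 15 described sites from the start of the Nprl3 stretch onwards with a summit of at least 8 lists, titled by distance from Hba-a1. Points are lists, horizontal lines group means and bars SD (n = 3), with G1E-ER4 mitotic, G1E-ER4 asynchronous, G1E mitotic and G1E asynchronous from left to right. Mitotic points lie below the asynchronous ones of their line at -36.7 and -32.9 kb, and groups overlap at -16.3 and +16 kb.

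The -45.4 kb site (chr11:32138482-32138811), 1.4 kb further on, was stronger, with summits of 11 lists within 30 bp. Mitotic G1E-ER4 lists had no peak in replicate 1 and ranks of 16184 and 35869 in the others, against 9820, 10389 and 10056 in asynchronous G1E-ER4. Mitotic G1E lists had ranks of 44003, 8998 and 13164, against 13078, 15561 and 12070 in asynchronous G1E. The stages did not overlap in G1E-ER4 and did in G1E. The difference was -1.15 (SE 0.48, exact permutation p = 0.075, limma adjusted p = 0.181), with -1.94 in G1E-ER4 and -0.36 in G1E.

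Not every site of the stretch stood lower in mitosis. No annotation of mm9 was used, so the sites given here are not assigned to enhancers or to the promoter of Nprl3. At -16.3 kb (chr11:32167463-32167839), 2.4 kb from the -18.7 kb site, mitotic G1E-ER4 lists had ranks of 5694, 9411 and 10226, against 7412, 9925 and 11252 in asynchronous G1E-ER4. Mitotic G1E lists had ranks of 5869, 10597 and 10201, against 3180, 28082 and 8621 in asynchronous G1E. The groups overlapped and the difference was 0.15 (SE 0.46, exact permutation p = 0.775). The next site, at -14.8 kb, was held by all 12 lists at ranks of 3180 to 14248, with a difference of -0.22 (SE 0.34, exact permutation p = 0.56). In 2 lists, replicate 1 of mitotic and of asynchronous G1E, 1 wide peak held both, so those ranks are not separate measurements. The -50.0 kb site was the 1 of the stretch that was higher at an unadjusted exact p under 0.05, by 0.89 (p = 0.045, adjusted p = 0.283).

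The mitotic lists as a whole had flatter signals. The signal at rank 10000 was 2.07 to 2.27 times that at the last rank in mitotic G1E-ER4 lists and 3.82 to 4.25 times in asynchronous ones. In G1E it was 1.86 to 2.67 times in mitotic and 3.19 to 6.3 times in asynchronous lists. Ranks take no account of this, and its part in the differences was not tested. In both lines mitotic replicate 1 was the weakest mitotic list, or lacked a peak, at -57.5, -45.4, -38.1, -32.9, -27.7, -18.7, -0.4 and +12.4 kb. At -46.8 and -36.7 kb it had no peak in either line, as had another mitotic list of each. At -16.3 kb it was the strongest mitotic list of both lines. The part of this pair of lists together in the stage differences was not tested.

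At the globin genes the stage differences were smaller. The site nearest the given position of Hba-a1, at -0.4 kb (chr11:32183437-32183785), was held by all 12 lists with summits within 49 bp. Mitotic G1E-ER4 lists had ranks of 27982, 7869 and 15240, against 8313, 6871 and 6339 in asynchronous G1E-ER4. Mitotic G1E lists had ranks of 16060, 10480 and 9042, against 9895, 9537 and 7914 in asynchronous G1E. In G1E-ER4 mitotic replicate 2 stood above asynchronous replicate 1, and in G1E mitotic replicate 3 stood above 2 asynchronous lists. The difference was -0.71 (SE 0.30, exact permutation p = 0.035, adjusted p = 0.264, limma adjusted p = 0.197), with -1.07 in G1E-ER4 and -0.34 in G1E.

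The Hba-a2 site, at +12.4 kb (chr11:32196246-32196584), gave nearly the same ranks. They were 30499, 10743 and 12198 in mitotic and 8883, 7666 and 6604 in asynchronous G1E-ER4 lists. In G1E they were 19891, 8279 and 8849 in mitotic and 7761, 9785 and 10341 in asynchronous lists. The mitotic G1E-ER4 lists were all below the asynchronous ones, and in G1E the stages overlapped. The difference was -0.67 (SE 0.32, exact permutation p = 0.055, adjusted p = 0.303, limma adjusted p = 0.248). A site held by 3 lists lay nearer the given position of Hba-a2, at 318 bp against 591 bp, and is among those without 3 summits.

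The 2 globin sites were each other's nearest match in the window. Their rank scores differed by a mean of 0.22 in absolute value over the 12 lists. Over the whole table no site came closer to the Hba-a2 site than the Hba-a1 site did, and 2 of 441685 sites came closer to the Hba-a1 site than the Hba-a2 site did. Next in likeness in the window were the -83.6 kb site, with mean differences of 0.38 from Hba-a1 and 0.46 from Hba-a2, and the +16 kb site, with 0.59 from each. Whether the pair shares reads was not tested, and with the promoter sequence shown above it cannot be taken as 2 independent measurements.

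Each globin site had a companion further on. In asynchronous G1E-ER4 the companions' mean rank scores were 2.884 and 2.975, against 3.81 and 3.706 at the Hba-a1 and Hba-a2 sites. In mitotic G1E-ER4 they were higher, at 3.665 ± 0.597 and 2.81 ± 0.097 against 2.74 ± 0.915 and 2.656 ± 0.821 (SD, n = 3 each). At the Hba-a2 site and its companion these means differed by less than the larger SD. In G1E the companions' means were the lower ones at both stages, in mitotic cells by less than the larger SD of each pair. The +2.9 kb site (chr11:32186757-32187100) lay 3.3 kb beyond the Hba-a1 site and the +16 kb site (chr11:32199853-32200203) 3.6 kb beyond the Hba-a2 site, and RefSeq's order puts Hbq1b and Hbq1a, the theta-globin genes, after Hba-a1 and Hba-a2. No annotation of mm9 was used, so these sites are not assigned to those genes. Ranks at +2.9 kb were 8716, 5003 and 11241 in mitotic and 10773, 16245 and 14205 in asynchronous G1E-ER4 lists. In G1E they were 25961, 8178 and 7575 in mitotic and 10180, 10006 and 16373 in asynchronous lists. The groups overlapped in both lines, and the difference was 0.40 (SE 0.35, exact permutation p = 0.305). At +16 kb all 12 ranks lay between 9270 and 21949, with a difference of -0.32 (SE 0.21, exact permutation p = 0.085).

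Beyond the genes, the +25.5 kb site (chr11:32209264-32209877) ran the other way. All 6 mitotic lists held it, at ranks of 45903, 32529 and 59422 in G1E-ER4 and 86116, 31376 and 34338 in G1E. Of the asynchronous lists only replicate 1 of G1E-ER4 did, at 51869, which is above mitotic replicate 3 of its line. The difference was 1.00 (SE 0.31, exact permutation p = 0.01, adjusted p = 0.152, limma adjusted p = 0.0723).

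The second question was how the locus differs between G1E-ER4 cells with GATA1 activity restored and GATA1-null G1E cells. Of the 17 described sites of the stretch, 9 had a lower mean rank score in G1E-ER4 and 8 a higher one, with a median difference of -0.08. The median was 0.08 over the 41 described sites, 0.55 over the 81 tested sites and 0.13 over all tested sites of the genome. At an unadjusted exact p under 0.05, 2 of the 81 (2.47%) were lower in G1E-ER4 and 11 (13.6%) higher, against 3.21% and 8.12% of all tested sites. By limma 1 (1.23%) was called lower and 3 (3.7%) higher, against 2.68% and 3.48% of all tested sites, so by limma the share called higher was close to that of the genome and the share called lower was below it. Of the 11 higher sites 6 were not described ones and lay in the block of wide peaks, where 1 peak can give its rank to several sites.

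The 2 lower ones were both in the Nprl3 stretch and were also lower in mitosis. At -32.9 kb, with the ranks given above, every G1E-ER4 list stood below every G1E list of its stage. The difference was -2.10 in mitotic and -2.60 in asynchronous cells, and -2.35 over both (SE 0.55, exact permutation p = 0.005, adjusted p = 0.143, limma adjusted p = 0.0312). The limma call was lost, at adjusted p up to 0.0744, in 6 of 12 fits that each left out 1 list. It was the only described site below without overlap at both stages, 1 of 41. It was also the only one of the 81 tested sites of the window, against 0.961% of all tested sites. At -18.7 kb the difference was -1.57 (SE 0.61, exact permutation p = 0.04, adjusted p = 0.352, limma adjusted p = 0.189), and mitotic lists of the 2 lines overlapped, since replicate 1 of mitotic G1E had no peak.

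At -38.1 and -36.7 kb the same direction was seen without passing. The difference at -38.1 kb was -1.32 (SE 0.61, exact permutation p = 0.1), with -0.65 in mitotic and -1.99 in asynchronous cells. At -36.7 kb it was -0.78 (SE 0.35, exact permutation p = 0.05), with -0.57 in mitotic and -0.98 in asynchronous cells. In asynchronous cells 3 of the 41 described sites were lower in G1E-ER4 without overlap, all in the stretch, and 11 were higher, against 6.92% and 15.8% of all tested sites. In mitotic cells 1 was lower and 1 higher, against 4.9% and 5.14%. Tested sites need no summit of 3 lists, so these counts and shares are not on the same filter. Many sites of the block of wide peaks that are not described were also higher in asynchronous G1E-ER4 without overlap.

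The -27.7 kb site went the opposite way to its neighbours. It was higher in G1E-ER4 by 0.95 in mitotic and 1.33 in asynchronous cells, and by 1.14 over both (SE 0.46, exact permutation p = 0.03, adjusted p = 0.314, limma adjusted p = 0.205). All 3 asynchronous G1E-ER4 lists stood above all 3 asynchronous G1E lists, and the mitotic lists overlapped. The next described sites, at -26.3 and -25.1 kb, had line differences of -0.084 (exact permutation p = 0.7) and 0.505 (exact permutation p = 0.2). The -41.5 kb site was higher by 0.65 (SE 0.26, exact permutation p = 0.045, adjusted p = 0.352). The 2 globin sites showed no line difference beyond the spread, at -0.02 (SE 0.30, exact permutation p = 0.96) for Hba-a1 and -0.11 (SE 0.32, exact permutation p = 0.725) for Hba-a2. These values average opposite signs. The difference was 0.348 in asynchronous and -0.38 in mitotic cells for Hba-a1, and 0.268 and -0.485 for Hba-a2. The lists of the 2 lines overlapped at each stage. Rank limits what can be said here, since a change in cutting that leaves a site's place in its list does not appear.

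The 1 described site called higher in G1E-ER4 by limma lay far upstream at -92.2 kb (chr11:32091486-32092126). All 6 G1E-ER4 lists held it, at ranks of 47030, 71912 and 29314 in mitotic and 25264, 37187 and 38584 in asynchronous cells. Of the G1E lists only replicate 3 of mitotic cells did, at 93011. The lines did not overlap at either stage, in 1 of 41 described sites and 1 of the 81 tested sites of the window, against 2.54% of all tested sites. The difference was 1.34 (SE 0.24, exact permutation p = 0.005, adjusted p = 0.143, limma adjusted p = 0.00918). Its neighbour at -93.6 kb was higher by 0.89 (SE 0.36, exact permutation p = 0.04, adjusted p = 0.352) and shared 1 wide peak with it in 3 G1E-ER4 lists, so the 2 are not independent.

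Between the -78.7 kb site and the Nprl3 stretch, and running into the start of that stretch, lay a block of wide peaks. Most of the block was left uncovered in 2 of the 12 lists. It was taken as the span of the widest peak of the window, a peak of 24.5 kb in replicate 1 of asynchronous G1E-ER4 (chr11:32107493-32131962, rank 581), so its extent was set by that list. It held 7 of the 41 described sites, the -53.3 and -52.6 kb sites of the stretch among them, and 24 others. In that list it was 1 peak, and in the other lists it was broken into 3 to 15. Peaks covered 22.2, 19.8 and 13.9 kb of it in mitotic and 24.5, 20 and 19.4 kb in asynchronous G1E-ER4. In G1E they covered 14.5, 21.5 and 19.9 kb in mitotic and 16, 2.1 and 4.1 kb in asynchronous lists. Replicates 2 and 3 of asynchronous G1E stood apart, with widest peaks of 538 and 803 bp there. These are also the lists with the shortest covered length genome-wide, at 45 and 57.5 Mb, and the part of this in the difference was not tested.

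**Figure D4:**
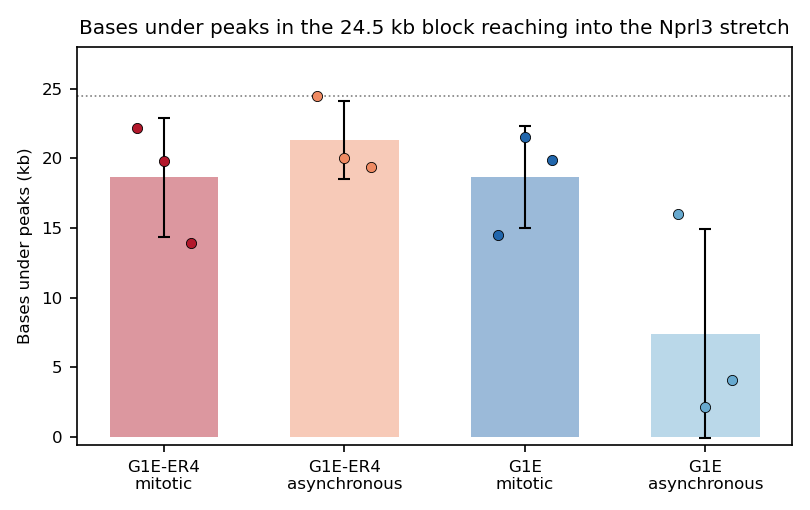
Bases under peaks (kb) in the block of 24.5 kb, by group. Bars are means, error bars SD (n = 3), points lists, and the dotted line the length of the block. Asynchronous G1E is the group with 2 lists near 0.

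The authors' pooled list of asynchronous G1E, by contrast, had 35 peaks in the window, none wider than 5166 bp. The pooled lists of mitotic and asynchronous G1E-ER4 and of mitotic G1E had peaks of up to 23584, 25575 and 23466 bp. Inside the block, the -57.5 kb site (chr11:32126280-32126623) had a summit of all 12 lists within 44 bp. Its ranks were 4804, 3241 and 4236 in mitotic and 581, 1140 and 1340 in asynchronous G1E-ER4 lists. In G1E they were 7275, 2704 and 3530 in mitotic and 2885, 8418 and 5947 in asynchronous lists. The stages did not overlap in G1E-ER4 and did in G1E, and the stage difference over both lines was -0.86 (exact permutation p = 0.12). The line difference was 1.24 (exact permutation p = 0.05, adjusted p = 0.352).

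Also in the block, the -66.9 kb site (chr11:32116922-32117229) had summits of 9 lists within 8 bp. Its ranks were 4804, 4186 and 7141 in mitotic and 581, 1335 and 2687 in asynchronous G1E-ER4, and in G1E 4034 and 7277 with no peak in replicate 1 of mitotic cells and 3612, 8685 and 8175 in asynchronous cells. The line difference was 1.88 (SE 0.73, exact permutation p = 0.035, adjusted p = 0.345). It reversed to -0.09 (exact permutation p = 0.96) when a list held a site only with its own summit, since several of these ranks belong to peaks of up to 24.5 kb.

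Whether the stage difference itself differed between the lines was tested at every site. No tested site of the window passed by the exact permutation test or by limma, with smallest adjusted p-values of 0.754 and 0.0674. Of all tested sites the exact test called 0.0%, and limma called 0.117% lower and 0.319% higher. At an unadjusted exact p under 0.05, 1 of 81 sites was lower in G1E-ER4 and 0 higher, against 2.89% and 0.248% of all tested sites. At the 5 sites from -38.1 to -18.7 kb the stage difference was -1.26, -1.41, -2.28, -1.41 and -2.20 in G1E-ER4 and -2.60, -1.82, -2.78, -1.03 and -2.46 in G1E. The exact permutation p of the difference between lines was 0.39, 0.68, 0.805, 0.765 and 0.85, with all adjusted p-values at 0.754 or above.

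The remaining described sites were held by 3 to 12 lists, at ranks of 581 to 99432. Their stage differences over both lines ran from -1.50 to 1.95, with exact permutation p-values of 0.05 or more. Their line differences ran from -0.56 to 2.39, with exact permutation p-values of 0.1 or more, and none was called by limma.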

How the data were processed

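DNase-seq, which maps DNA open to DNase I, was done by the submitters on 12 libraries in 4 groups. According to the labels' protocols, cells were fixed lightly, mitotic cells were sorted for phosphorylated histone H3, and 3 DNase I concentrations were chosen per condition. The submitters' processing notes name Bowtie and build mm9. The sources used here do not give the peak caller. The deposited lists, 1 per library and 1 per group pooled by the authors, hold 100000 peaks each with a position, a summit and a signal of unstated normalization. Signal served only to order the peaks of each list. Depth is unknown.

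Sites, rank scores, the exact permutation test and the adjustment are as defined with the results, computed in Python 3.11.15 with numpy 2.4.6 over the autosomes and X. The other tool was limma 3.58.1 with 4 group means. Tests were checked on simulated data. The sites named are those with a summit of at least 3 lists. Where another site lay nearer a gene's given position, the nearest such site was used. The locus, motifs and tests were chosen with earlier results of these data known. The 2 short promoter motifs, counts of lists without overlap and limma without single lists were added after seeing the data. Other settings tried were other site definitions, filters, overlaps, list lengths, the pooled lists, the replicate number as a block, and leaving out each list.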

Additional observations from a re-analysis of the deposited data

How the results depend on the processing

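The exact permutation test called 0 sites of the window by stage and 0 by line at every setting tried, those without single lists and the replicate block among them. By limma the calls were 4 by stage (4 lower) and 4 by line (1 lower, 3 higher). Without single lists limma called 3 to 8 by stage, the 8 without replicate 1 of asynchronous G1E-ER4, and 2 to 8 by line. The line count was 7 without replicate 3 of asynchronous G1E-ER4, 8 without replicate 1 of asynchronous G1E, and 2 without replicate 1 of mitotic G1E-ER4, 1 or 2 of asynchronous G1E-ER4, or 3 of mitotic or of asynchronous G1E. The stage calls at -46.8, -36.7 and -32.9 kb held in all 12 of these fits, as did the line call at -92.2 kb. Replicate numbers were not taken as pairs in the main tests, and whether they pair the samples is not settled. By stage, correlations of deviations between lists with the same number were 0.296, -0.016 and 0.241 in G1E-ER4 and 0.157, 0.012 and 0.119 in G1E. Between lists with different numbers they ran from -0.316 to 0.161 in G1E-ER4 and from -0.174 to 0.134 in G1E. With the replicate block limma called 6 sites by stage and 6 by line, and the exact test 0. Support by all 3 lists of mitotic G1E-ER4, asynchronous G1E-ER4, mitotic G1E and asynchronous G1E was 14, 18, 14 and 16 sites with merged peaks. With a summit required in the site it was 14, 19 and 12 for the first 3 groups. The authors' pooled lists held 74, 84, 73 and 63. Without single lists it was 35 to 53, 50 to 58, 37 to 51 and 26 to 33. The share of G1E sites held in mitosis was 63.0% with a summit required, 85.9% among the 50000 highest peaks and 73.7% to 81.5% without single lists, and that of G1E-ER4 72.1% to 83.3%. Sites without overlap numbered 2 to 5 lower and 0 to 3 higher by stage without single lists, and 1 to 2 lower and 1 to 6 higher by line. By stage the 5 and 4 lower came without replicate 3 of mitotic and replicate 1 of asynchronous G1E, the 3 higher without replicate 1 of asynchronous G1E-ER4 and 1 higher without replicate 3 of mitotic G1E-ER4. By line the 2 lower came without replicate 1 of mitotic G1E, the 6 higher without replicate 3 of mitotic G1E-ER4 and 2 higher without any 1 of the mitotic G1E lists. The 1 site higher by line without overlap became 0 with merged peaks, with a summit required and among the 50000 highest peaks. This was the -92.2 kb site, where replicate 1 of mitotic and of asynchronous G1E-ER4 had no summit and replicate 2 of mitotic G1E-ER4 had rank 71912. With merged peaks the cause was not tested. The line difference at -66.9 kb reversed to -0.085 with a summit required. The line differences at the Hba-a1 and Hba-a2 sites, near 0, took either sign without single lists, from -0.25 to 0.21 and from -0.31 to 0.13. With no counts in the files, depth sets no stated limit.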
